A study of Mus musculus with 8 samples.

Results

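The urea cycle genes described here are 8 in number: Nags, Cps1, Otc, Ass1, Asl and Arg1, which encode enzymes, and Slc25a15 and Slc25a13, which encode mitochondrial carriers. They were chosen by name for their role in the pathway and not for their values. All 8 were found on both array designs used, among 49826 gene names on one and 34761 on the other. The RNA came from 4 kinds of cells with 2 arrays each. Lin- BM cells are bone marrow cells left after magnetic removal of cells that carry surface markers of mature blood lineages, taken from female C57Bl6/J-Tg(UBCGFP)30Scha/J mice, in which the ubiquitin C promoter drives eGFP in all cells. BM-derived hepatocytes are eGFP-positive cells sorted from the livers of male hemophilia A mice [B6;129S4-F8tm1Kaz/J] that had received such Lin- BM cells during acetaminophen injury, 1 month or 5 months earlier. Donors and recipients were 6 to 8 weeks old at the start. Primary hepatocytes were isolated by collagenase perfusion, and the labels do not give the strain, sex or treatment of their mice. Each array held pooled cells of several mice, so the p-values measure the spread between pools.

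In the urea cycle, hepatocytes turn ammonia into urea. Inside the mitochondrion NAGS makes N-acetylglutamate, the obligate activator of CPS1, CPS1 joins ammonia and bicarbonate to carbamoyl phosphate, and OTC transfers the carbamoyl group to ornithine to give citrulline. In the cytosol ASS1 condenses citrulline with aspartate, ASL cleaves the product into arginine and fumarate, and ARG1 splits arginine into urea and ornithine. SLC25A15 exchanges ornithine for citrulline across the inner mitochondrial membrane, and SLC25A13 (citrin) exports aspartate from the mitochondrion. The complete cycle is a property of hepatocytes and is strongest near the portal vein, whereas single steps such as those of ASS1 and ASL serve arginine synthesis in many cells.

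The arrays measured each gene with probes of 60 bases. Lin- BM cells and 1-month BM-derived hepatocytes lay on slide 1, and primary hepatocytes and 5-month BM-derived hepatocytes on slide 2, which has another design. Slide therefore cannot be told apart from group in any comparison across slides. Only 13991 probe sequences are on both designs, and 6 of the 8 genes have one of them. Cps1 and Ass1 do not, and were compared within slides alone. The pair of Cps1 probes shows why: they share 22 bases, printed in capitals, and each has 38 bases of its own.

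Cps1, slide 1: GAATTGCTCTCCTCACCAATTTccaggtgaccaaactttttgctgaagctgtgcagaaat
Cps1, slide 2: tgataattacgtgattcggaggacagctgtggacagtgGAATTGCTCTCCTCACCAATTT

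The probes that carry the comparisons across slides are identical on both designs. Those of Asl, Arg1 and Nags are shown because the results below turn on them. The Otc probe shown is the dimmer of its pair. The Otc changes and bounds across slides come from the brighter probe, which is not printed, and the levels of the dimmer one are given beside it. The probes printed next are in lower case throughout, since no part of them is singled out.

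Otc: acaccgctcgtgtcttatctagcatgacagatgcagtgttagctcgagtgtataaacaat
Asl: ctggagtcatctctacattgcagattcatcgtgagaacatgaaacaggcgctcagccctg
Arg1: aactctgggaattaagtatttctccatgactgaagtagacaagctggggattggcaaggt
Nags: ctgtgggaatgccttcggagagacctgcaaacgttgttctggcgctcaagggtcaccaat

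By the coordinates in the array files (mm9), the Cps1 probe of slide 2 lies at chr1:67276029-67276088, the Arg1 probe at chr10:24636194-24636253 and the Nags probe at chr11:102009515-102009574. The ends of the Otc probe lie at chrX:9853843-9877490, 23648 bases apart for 60 bases of probe, and those of the Asl probe at chr5:130487964-130488549, 586 bases apart. Both probes thus span genomic sequence that they do not contain.

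Levels are given as the log2 of the background-subtracted signal after the array's 75th percentile was set to 0. A probe counted as measured on an array where the scanner software found it well above background. Between 47.7% and 58.6% of the probes were well above background on an array, and none was saturated. The 1-month arrays were the dimmest, with a 75th percentile of the signal of 75.5 and 89.5 against 122.2 to 193.4 on the others. Of 8 hepatocyte markers, among them Alb, Apob and Ttr, 0 were well above background on the Lin- BM cell arrays and 8 on each of the other arrays. The summed signal of 6 leukocyte markers, in units of the array's 75th percentile, was 310.4 and 182.7 in Lin- BM cells and 1.12 and 3.56 at 1 month. On slide 2, where some of these markers have other probes, it ran from 2.72 to 7.92. Since these are bulk samples, fewer cells of a type and less RNA per cell cannot be told apart.

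All 8 urea cycle genes rose in 1-month BM-derived hepatocytes compared with the Lin- BM cells on the same slide. A gene was called changed at a limma adjusted p below 0.05 (Benjamini-Hochberg) with a log2 change beyond 0.6. Of 28538 genes tested 55.3% were called and 28.8% were called higher, against 8 of 8 here. The median log2 change was 6.30 for the 8 genes and 0.07 for all genes tested. The median is the same with the 3 genes that no Lin- BM cell array measured well above background set to their lower bounds. In the other 5 genes the log2 changes ran from 4.21 to 8.98. The 3 genes with bounds, and Arg1, were kept for testing only through the 1-month arrays, where they are high.

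The genes started from different levels in Lin- BM cells. Ass1, Asl and Slc25a13 were well above background on both arrays. Cps1, Otc and Slc25a15 were not well above background on either array. Arg1 was well above background on 1 of the arrays, and the Nags probes on 1 or both.

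Otc, the enzyme that makes citrulline, was not measured in Lin- BM cells by either of its probes. The log2 level of its brighter probe was -6.52 and -6.44 in Lin- BM cells, not well above background, and 6.68 and 6.77 at 1 month. The fitted change, which rests on Lin- BM cell values not well above background, had an adjusted p of 6.2e-05 by limma. The level at 1 month was at least 2268-fold higher, and the p-value does not belong to this bound. This lower bound, like those below, sets the 1-month mean against the lowest signals well above background on the Lin- BM cell arrays. It holds for the main processing only, and the alternatives also gave smaller changes. The dimmer Otc probe printed above had -6.30 and -6.67, not well above background, and 2.61 and 3.33 at 1 month.

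Cps1, whose product catalyses the first committed step, had log2 levels of -4.96 and -6.15 in Lin- BM cells and of 5.90 and 6.78 at 1 month. Both Lin- BM cell values were not well above background, and the 1-month arrays lay apart from each other by less than the gap between the groups. The change was at least 1735-fold. The limma adjusted p of 2.3e-04 belongs to the fitted change, which rests on those unmeasured values, and not to the bound.

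Nags varied most among the Lin- BM cells. Its brighter probe had log2 levels of -2.35 in replicate 3 and 1.1 in replicate 4, and of 6.62 and 6.64 at 1 month. The groups did not overlap, and both Lin- BM cell arrays were well above background. The log2 change was 7.26 ± 1.13 (SE, n = 2 against 2), with a 95% confidence interval of 4.34 to 10.19 and a limma adjusted p of 6.2e-03, but it was not called by the methods' t-test, adjusted or not. Without replicate 3 the change was 5.54, and without replicate 4 it was 8.99. The second Nags probe showed the same gap between the Lin- BM cell arrays: it was at -6.17, not well above background, in replicate 3 and at -2.48 in replicate 4, against 2.94 and 2.83 at 1 month. The gaps of 3.45 and 3.69 were exceeded by 0.481% and 0.365% of the 37224 probes measured in Lin- BM cells, whose median gap was 0.42. Gls2, the liver-type glutaminase, was 3.04 higher in replicate 4 as well. Hepatocyte markers were at background on both arrays, and the summed Kupffer cell and macrophage markers were 1.07 in replicate 3 and 3.53 in replicate 4. Their part in this gap was not tested.

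Among the cytosolic enzymes Arg1 changed most. Its log2 levels were -4.67 in Lin- BM cells replicate 3, not well above background, -3.82 in replicate 4, well above it, and 4.74 and 4.72 at 1 month. The log2 change was 8.98 ± 0.37 (SE, limma adjusted p = 1.8e-04). Its size depended on the processing, and ran from 5.83 to 9.40 over the alternatives. Arg1 is also a gene of alternatively activated macrophages, and of 3 markers of those cells Chil3 was measured in both Lin- BM cell arrays, with a summed signal of 96.3 in replicate 3 and 6.72 in replicate 4. Mrc1, another of the 3, was measured in replicate 4 alone, as was Arg1, and the part of such cells in the Arg1 signal was not tested.

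Ass1 had log2 levels of 1.67 and 1.94 in Lin- BM cells and of 6.90 and 7.40 at 1 month, a 40.5-fold rise (log2 change 5.34 ± 0.31, SE, limma adjusted p = 4.3e-04). Asl had 0.88 and 0.59 in Lin- BM cells and 5.42 and 5.39 at 1 month, a 25.5-fold rise. In both genes all 4 arrays were well above background, so that these folds are measured on both sides.

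The mitochondrial carriers rose with the enzymes. Slc25a15 had log2 levels of -4.97 and -4.29 in Lin- BM cells, not well above background, and of 0.18 and 0.60 at 1 month. Its rise was at least 27.0-fold. Slc25a13 had 1.28 and 1.51 in Lin- BM cells and 5.69 and 5.53 at 1 month, and rose 18.5-fold, the smallest change of the 8 (log2 change 4.21 ± 0.27, SE, limma adjusted p = 5.4e-04). In Slc25a13 and Slc25a15, as in the 6 enzymes, the groups did not overlap, which was true in this direction of 43.1% of all genes tested.

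**Figure D1:**
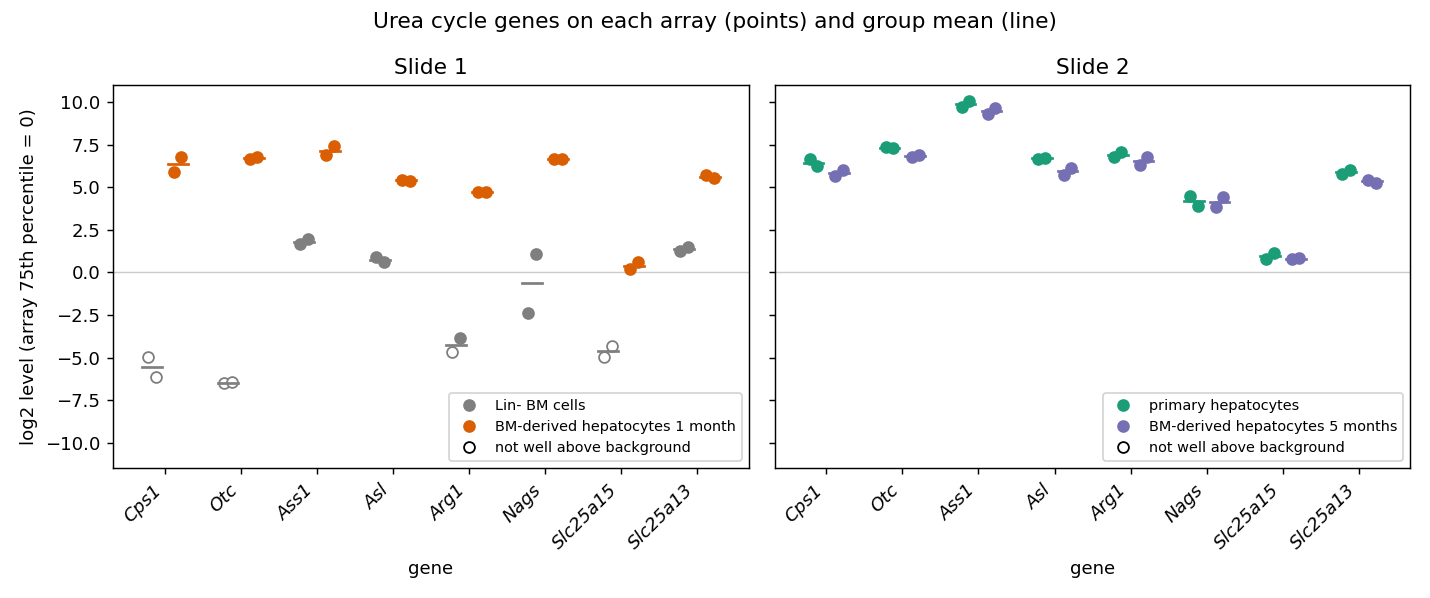
Log2 level of each urea cycle gene (x axis, brightest probe of the gene) on each array (y axis, array 75th percentile = 0), with group means as lines and open points for probes not well above background. On slide 1 the Lin- BM cell points lie below the 1-month points in all 8 genes, with Otc at -6.52 and -6.44 against 6.68 and 6.77, and on slide 2 primary hepatocytes and 5-month BM-derived hepatocytes lie close together. Levels of different genes are levels of different probes and are not to be set against each other.

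The sequences before the gene starts of Otc, Ass1 and Slc25a15 are shown because their genes began from different levels in Lin- BM cells: Ass1 was measured there, and Otc and Slc25a15 were not. They are from RefSeq (GRCm38.p6), end at the last base before the gene, and have the dinucleotide CG in capitals.

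Otc, chrX:10252055-10252229, plus strand: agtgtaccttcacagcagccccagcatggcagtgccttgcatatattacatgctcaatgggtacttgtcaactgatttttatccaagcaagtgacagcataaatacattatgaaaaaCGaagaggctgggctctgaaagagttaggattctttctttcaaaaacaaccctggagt
Ass1, chr2:31470120-31470269, plus strand: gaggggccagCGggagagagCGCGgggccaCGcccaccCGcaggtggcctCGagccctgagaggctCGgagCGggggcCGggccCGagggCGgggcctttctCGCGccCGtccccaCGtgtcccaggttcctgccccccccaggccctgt
Slc25a15, chr8:22398622-22398771, minus strand: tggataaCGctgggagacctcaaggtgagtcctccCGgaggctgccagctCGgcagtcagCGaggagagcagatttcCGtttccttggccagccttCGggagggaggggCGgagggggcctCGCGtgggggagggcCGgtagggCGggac

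The stretches hold 1 CG in Otc (175 bases), 15 in Ass1 (150 bases) and 11 in Slc25a15 (150 bases). RefSeq windows of 300 bases around a start (250 before it) were at hand for 5 of the 8 genes, Ass1, Nags, Otc, Slc25a13 and Slc25a15. They held 27 CG in Ass1, 17 in Slc25a13, 14 in Nags, 1 in Otc and 51 and 15 at the starts of Slc25a15, against a median of 7 over 32817 windows. In Lin- BM cells Ass1, Slc25a13 and Nags were measured and Otc and Slc25a15 were not. The letters AAAGTNCA, the core of sites of the hepatocyte factor HNF4A, were searched on both strands and found once in the Otc window, outside the printed stretch, and in none of the other members' windows. They occur in 4.12% of all windows. The letters TTGCNNAA, the palindromic core of C/EBP sites, were in none of the members' windows and in 10.8% of all windows. A match of letters is a description of the sequence only.

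Between 5-month BM-derived hepatocytes and the primary hepatocytes on the same slide 0 of 8 urea cycle genes were called by limma. Of 19934 genes tested 0.552% were called. These are 110 genes, a number that single arrays moved: it was 1533 without primary hepatocytes replicate 2, 1624 without replicate 4 and 0 without either 5-month array, and the urea cycle count was 0 of 8 each time. All 8 values nevertheless lay on the same side, with log2 differences from -0.07 to -0.76 (5 months minus primary hepatocytes) and a median of -0.44, against a median of 0.04 for all genes tested. At an unadjusted p below 0.05 the count was 1 of 8, against 14.1% of all genes, and by the methods' t-test, unadjusted and with a log2 limit of 0.6, it was 0 of 8, against 6.84% of all genes. In 5 of the 8 genes both 5-month arrays lay below both primary hepatocyte arrays, which held for 22.7% of all genes tested. All 8 genes were well above background on all 4 arrays.

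Asl had the largest of these differences. Its log2 levels were 6.65 and 6.72 in primary hepatocytes and 5.73 and 6.11 at 5 months. The groups did not overlap, and the difference of -0.76 had a 95% confidence interval of -1.39 to -0.13 with a limma adjusted p of 0.296. Cps1 had 6.65 and 6.23 in primary hepatocytes and 5.67 and 5.98 at 5 months, a difference of -0.62 with an interval of -1.33 to 0.09. Slc25a13 had 5.80 and 6.03 against 5.44 and 5.26, a difference of -0.56 with an interval of -1.14 to 0.03. Otc, Ass1 and Arg1, described next, had intervals down to -1.04, -1.06 and -1.07. In these 6 of the 8 genes the interval reaches below -1, so that a halving of the level, which is a log2 difference of -1, is within what the arrays allow.

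Otc was measured by a pair of probes on slide 2, and they gave different sizes. The brighter probe had log2 levels of 7.35 and 7.29 in primary hepatocytes and 6.74 and 6.91 at 5 months, a difference of -0.49 with an interval of -1.04 to 0.06. The dimmer probe, spotted 10 times on each array and crossing an intron, had 4.15 and 4.05 in primary hepatocytes and 2.16 and 3.25 at 5 months. Its difference of -1.39 ± 0.42 (SE) had an adjusted p of 0.267 in a limma fit over 27020 probes. Both probes were lower on both 5-month arrays, and neither was called.

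Ass1 had log2 levels of 9.72 and 10.03 in primary hepatocytes and of 9.32 and 9.65 at 5 months, a difference of -0.39, and its second probe gave -0.45. Arg1 had 6.78 and 7.06 against 6.33 and 6.79, a difference of -0.36, with groups that overlap. Nags had 4.46 and 3.92 against 3.84 and 4.4, and Slc25a15 had 0.77 and 1.12 against 0.77 and 0.86. In these last genes the arrays of a group differed by more than the group means, at -0.07 and -0.13, and leaving out 1 array turned the sign of either.

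No tested marker of cells other than hepatocytes was called on the same arrays. Only 0.552% of all genes were called there, so nothing is read from this count. By log2 difference 6 of 6 Kupffer cell and macrophage markers and 5 of 5 tested leukocyte markers were higher at 5 months, with medians of 1.14 and 0.76. Of the sinusoidal endothelium markers 3 of 5 were lower, as were 2 of 3 tested hematopoietic progenitor and 2 of 3 tested erythroid markers. The summed signal of 6 Kupffer cell and macrophage markers was 21.8 and 45.8 in primary hepatocytes and 96.2 and 90.7 at 5 months, with 6 of 6 markers measured on each array. That of 6 neutrophil and myeloid precursor markers was 10.4 and 22.5 against 72.2 and 13.3, with overlapping groups. Hepatocyte markers summed to 7031 and 7489 in primary hepatocytes and to 7670 and 8362 at 5 months. Of these 8 markers 6 were higher and 2 lower at 5 months, with a median log2 difference of 0.14. The part of the other cells in the differences of the urea cycle genes was not tested.

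**Figure D2:**
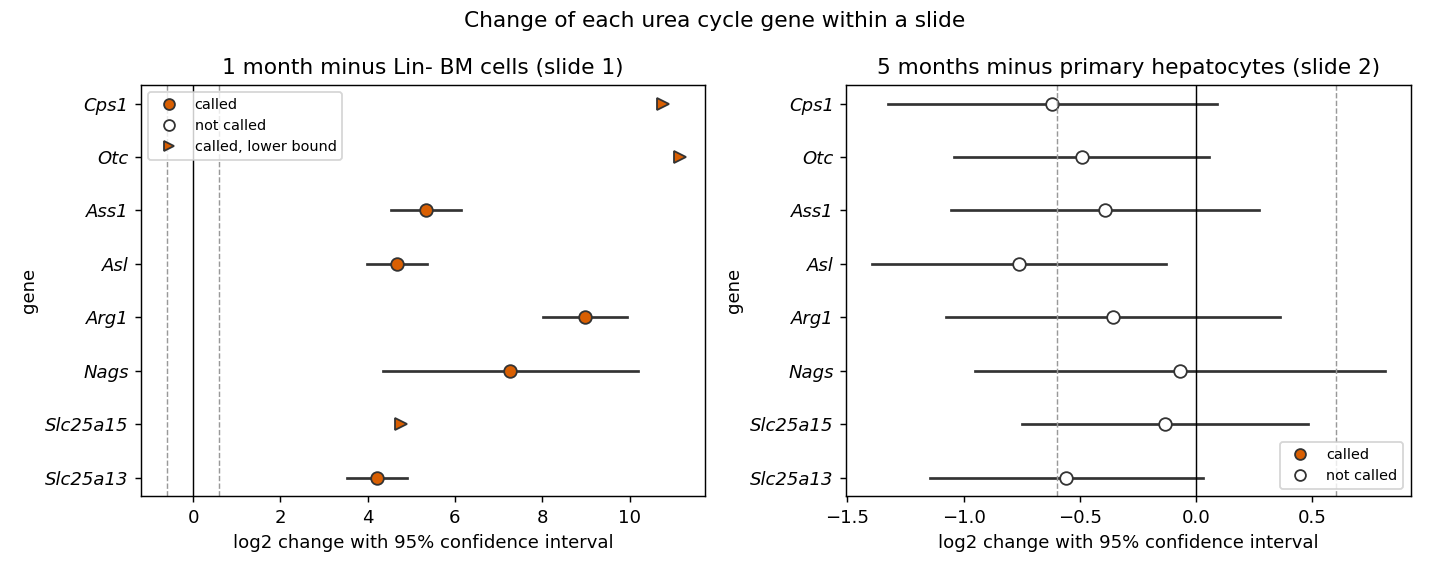
Log2 change (x axis) of each urea cycle gene (y axis) within slide 1, 1-month BM-derived hepatocytes minus Lin- BM cells, and within slide 2, 5-month BM-derived hepatocytes minus primary hepatocytes. Round points are differences of means of 2 arrays against 2, triangles are lower bounds for genes that no Lin- BM cell array measured, lines are 95% confidence intervals from limma, dashed lines mark a log2 change of 0.6 either way, and the x axes differ in scale. All 8 genes on slide 1 are called, with round points between 4.21 and 8.98, and all 8 on slide 2 lie between -0.76 and -0.07 and are not called.

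For the 6 genes with a probe of identical sequence on both designs the 4 groups were set side by side, on a log2 scale where the 75th percentile of the shared probes of an array is 0. All 6 were called higher in primary hepatocytes than in Lin- BM cells (of 9217 genes 29.3% were, and 67.4% were called either way), with log2 changes from 4.28 for Slc25a13 to 10.92 for Arg1 in the 4 genes measured on at least 1 Lin- BM cell array. Otc was at least 2893-fold and Slc25a15 at least 33.6-fold higher. All 6 were called higher at 5 months than in Lin- BM cells too (29.3% of genes were, and 67.1% either way), with log2 changes from 3.76 to 10.60 in the same 4 genes, Otc at least 2117-fold and Slc25a15 at least 31.5-fold higher. These comparisons share the Lin- BM cell arrays, and group and slide cannot be told apart in them.

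Arg1 set the 1-month cells apart from both groups on the other slide. Its log2 level was 3.30 and 3.33 at 1 month, 4.70 and 5.12 at 5 months and 5.07 and 5.38 in primary hepatocytes. The level at 1 month was lower than in primary hepatocytes by a log2 change of -1.91 ± 0.31 (SE, n = 2 against 2, limma adjusted p = 0.011), which is 3.77-fold. It was lower than at 5 months by 3.03-fold, with a log2 change from 1 to 5 months of 1.60 ± 0.31 (limma adjusted p = 0.020). The 1-month arrays nearly coincided and lay apart from all arrays of the other slide. Without either 1-month array the difference from primary hepatocytes was -1.90 or -1.93 and no longer called. With any 1 array of the pair of groups left out, the change from 1 to 5 months stayed between 1.39 and 1.81 and was no longer called.

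Asl was lower at 1 month as well. Its log2 level was 3.97 and 4.0 at 1 month, 4.11 and 4.44 at 5 months and 4.94 and 5.05 in primary hepatocytes. Only the difference between 1 month and primary hepatocytes was called, at -1.01 ± 0.25 (SE, limma adjusted p = 0.040). That call was lost with any 1 array left out and under quantile normalization, where the value was -0.91. Asl and Arg1 make 2 of 6 genes called lower at 1 month than in primary hepatocytes, against 5.09% of all genes (16.6% were called either way), and 1 of 6, Arg1, was called higher at 5 months than at 1 month, against 5.82% (17.1% either way). With another scaling, to the 75th percentile over all probes of a design, the share of higher calls over all genes moved from 69.4% to 49.9% for 1 month against primary hepatocytes and from 34.1% to 52.6% for 5 months against 1 month, and the median of all genes moved from 0.17 to -0.09 and from -0.14 to 0.08. Arg1 kept its direction in both comparisons under every scaling tried. Hepatocyte markers lay on the same sides. Of 6 tested, 6 were lower at 1 month than in primary hepatocytes, 0 of them called. Their median was -0.65, against -0.67 for the urea cycle genes. From 1 to 5 months 6 of 6 were higher, 3 of them called, with medians of 0.835 and 0.244. Of 8 ammonia and aspartate supply genes, 8 were lower at 1 month than in primary hepatocytes, 2 of them called.

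The other 4 genes were not called between the hepatocyte groups. Nags had 1.49 and 1.44 at 1 month, 2.21 and 2.73 at 5 months and 2.76 and 2.25 in primary hepatocytes, with the 1-month arrays below the others and a difference from primary hepatocytes of -1.04 whose 95% confidence interval, -3.47 to 1.40, comes from a fit that pools the spread of all groups, the Lin- BM cells included. The brighter Otc probe had 5.23 and 5.38 at 1 month, 5.12 and 5.24 at 5 months and 5.64 and 5.62 in primary hepatocytes. The dimmer Otc probe was more spread, with 1.16 and 1.94, 0.54 and 1.58, and 2.44 and 2.38 in that order. Both Otc probes were thus highest in primary hepatocytes. Slc25a15 had -1.27 and -0.79, -0.86 and -0.81, and -0.93 and -0.55 in the same order. Slc25a13 had 4.24 and 4.13 at 1 month, 3.82 and 3.60 at 5 months and 4.09 and 4.36 in primary hepatocytes, which puts its lowest hepatocyte level at 5 months and not at 1 month. The sign of the difference between 5 months and 1 month in Otc, -0.12, turned to 0.11 with the 75th percentile over all probes. By group means the order was thus Lin- BM cells, 1 month, 5 months and primary hepatocytes in Asl, Arg1, Nags and Slc25a15. A step between the last neighbours was called in none of them, and between 1 month and 5 months in Arg1 alone. In Nags the arrays of 5 months and primary hepatocytes overlapped, and in Slc25a15 those of all hepatocyte groups did. Their order is not resolved there.

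**Figure D3:**
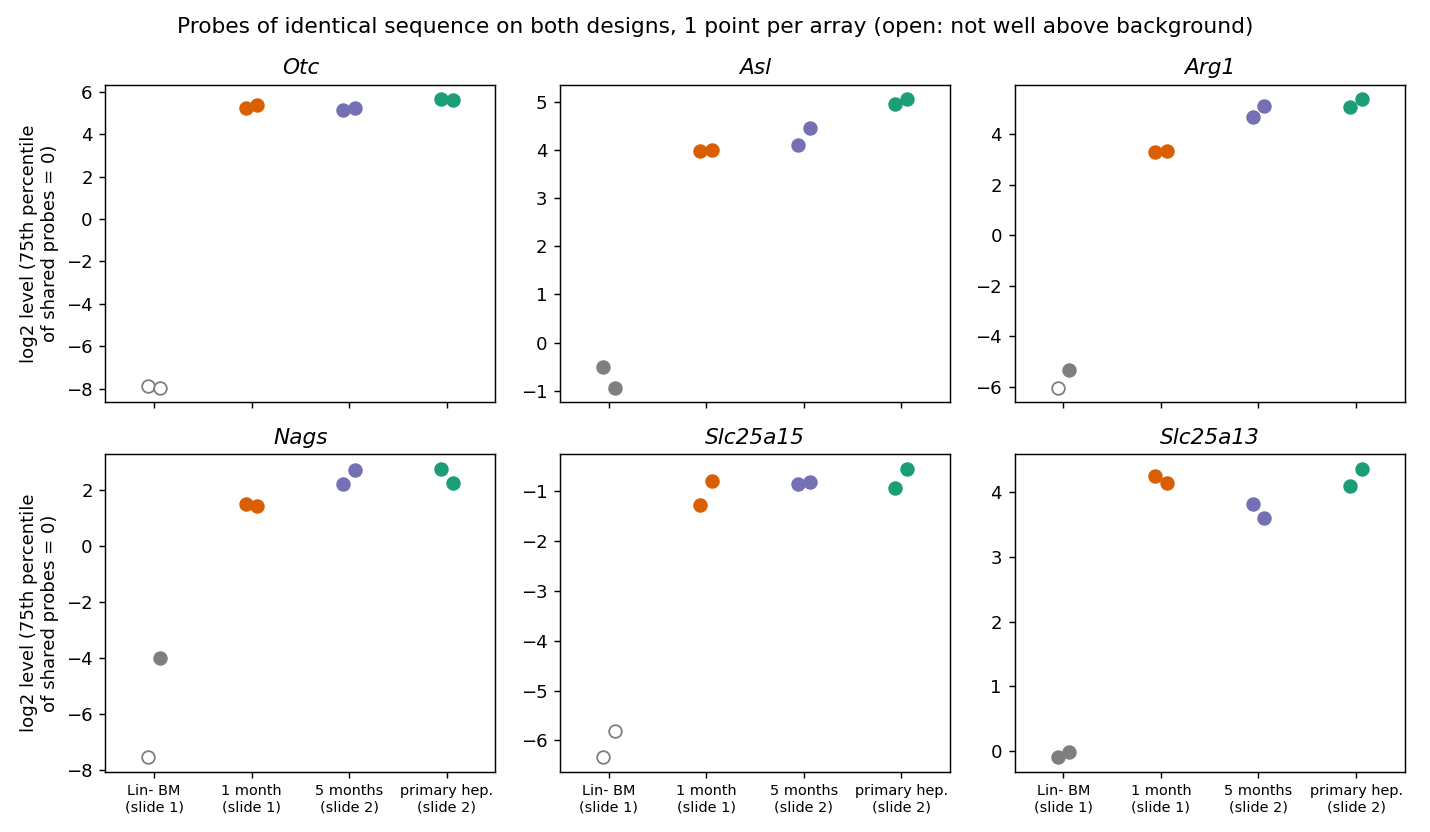
Log2 level (y axis, 75th percentile of shared probes = 0, each panel with its own range) of the 6 urea cycle genes with a probe on both designs, for each of 8 arrays by group (x axis, with the slide), open points being not well above background. The Arg1 points at 1 month, 3.30 and 3.33, lie below the 4 points of slide 2, and in all 6 panels the Lin- BM cell points are the lowest.

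The genes whose log2 profile over the 8 arrays lay closest to a urea cycle gene were found by the root mean square difference of profiles, each centred on its own mean. Nearest to Otc were Slc38a4, an amino acid transporter, and Bhmt2, at 0.22 and 0.26. Nearest to Asl were Afmid and Pyroxd2, at 0.15 and 0.25, and nearest to Arg1 were Keg1 and Hoga1, at 0.35 and 0.36. Nearest to Nags were Ddc and Gls2, at 0.57 and 0.58, the least close of the 6 pairs. Slc25a15 had Aldh4a1, an enzyme of proline breakdown, and Ddt at 0.14 and 0.19, and Slc25a13 had Nit2 and Zfp354a at 0.19 and 0.20. All profiles share the same 8 arrays and most of their spread is that between Lin- BM cells and the rest.

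Other genes of nitrogen handling were described by lists. Of 11 genes that supply ammonia and aspartate, such as glutaminase, glutamate dehydrogenase and aminotransferases, 11 rose at 1 month compared with Lin- BM cells (28.8% of all genes did), with a median log2 change of 5.97. Slc38a3, which carries glutamine into periportal hepatocytes, rose from log2 levels of -4.10 and -4.20 to 6.64 and 6.35, the largest change among the genes of the list measured in both groups. The 4 genes for mitochondrial bicarbonate and for removal of acyl groups from CPS1 rose too, and Car5a, the liver mitochondrial carbonic anhydrase, was at least 734-fold higher. Of 6 regulators of urea cycle genes 5 rose, led by Gcgr, the glucagon receptor, from -2.29 and -2.12 to 7.73 and 7.58. The exception, the glucocorticoid receptor Nr3c1, was not called, at a log2 change of 0.29 ± 0.26 (SE).

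The paralogs of the urea cycle genes act in other pathways or tissues. Arg2, the mitochondrial arginase of other tissues, was not well above background on any of the 8 arrays. Cad, whose product holds the carbamoyl phosphate synthetase of pyrimidine synthesis, fell from 3.59 and 4.79 in Lin- BM cells to 1.11 and 1.09 at 1 month (log2 change -3.09 ± 0.46, SE, limma adjusted p = 5.4e-03). Slc25a12, the aspartate carrier of tissues such as muscle and brain, fell from 4.25 and 4.42 to 3.04 and 2.99 (adjusted p = 0.012 by limma). Its paralog Slc25a13 rose on the same arrays, so that the pair of aspartate carriers moved in opposite directions. Slc25a2, close to Slc25a15, was measured on slide 1 with a log2 change of 0.14 ± 0.25 (SE), and was not well above background on slide 2. Its probes on the slides differ in sequence, so the slides cannot be compared for Slc25a2. Of 5 paralogs 4 were tested, and 0 rose and 2 fell. Of all genes 28.8% rose and 26.5% fell, and with 4 genes nothing is read from these counts.

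Of 7 tested genes that use arginine and ornithine in other ways 3 rose and 2 fell, against 28.8% and 26.5% of all genes, and with 7 genes nothing is read from these counts. Agmat rose from -1.18 and -0.22 to 6.53 and 7.0, and Odc1, the first enzyme of polyamine synthesis, fell from 5.98 and 7.26 to 5.04 and 4.96. Nos2 was not well above background on both arrays of either group of slide 1 and was not tested there. On slide 2 it was measured on every array, at -0.34 and -0.59 in primary hepatocytes and -0.13 and -0.28 at 5 months. Its probes on the slides differ in sequence, so the slides cannot be compared for Nos2.

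**Figure D4:**
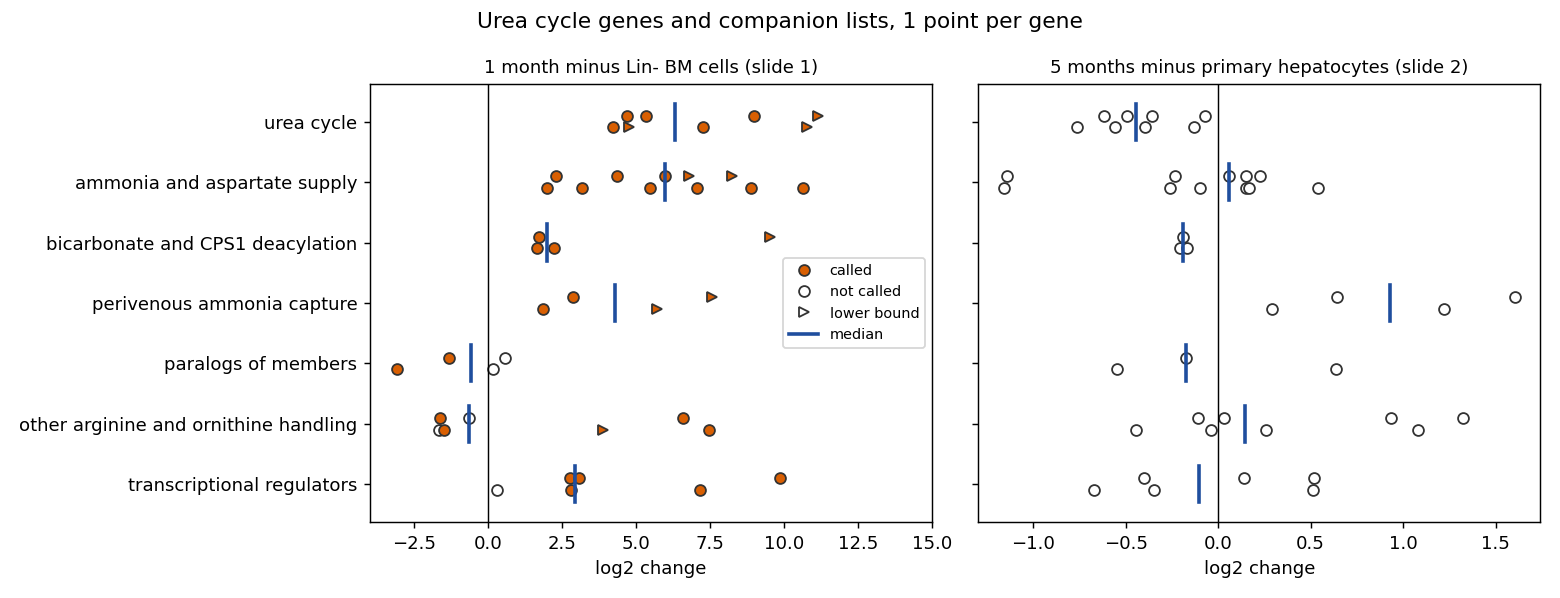
Log2 change (x axis) of each gene in 7 lists (y axis) within slide 1 and within slide 2, filled where called, with triangles for lower bounds of genes that no Lin- BM cell array measured, the list's median (bounds included) as a bar and different x ranges. At 1 month all genes of the first 4 lists are called higher and the paralogs lie between -3.09 and 0.55, and at 5 months no gene of any list is called.

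At 5 months compared with primary hepatocytes no gene of these lists was called (0.552% of all genes were). The urea cycle genes had 8 of 8 values below 0, the ammonia and aspartate list 5 of 11 with a median of 0.06, and the regulators 3 of 6. Chosen after their values were seen, Got1, the cytosolic aspartate aminotransferase, and Sds, serine dehydratase, had the lowest values at -1.14 and -1.16. Got1 had 7.44 and 7.53 in primary hepatocytes and 6.4 and 6.30 at 5 months (limma adjusted p = 0.133).

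The 4 perivenous ammonia capture genes rose at 1 month compared with Lin- BM cells, as did 28.8% of all genes. Glul rose by a log2 change of 1.83, and Rhbg was at least 188-fold higher. Rhbg and Slc1a2 were well above background on no Lin- BM cell array, and were kept for testing only through the 1-month arrays. At 5 months the 4 genes lay above primary hepatocytes, uncalled, and in Glul, Oat and Rhbg a single array decided the direction. In Slc1a2 the difference against primary hepatocytes replicate 4 alone was smaller but still above 0, at 0.47. Glul, the glutamine synthetase of the hepatocytes around the central vein, had a log2 level of 3.14 in primary hepatocytes replicate 2, 6.22 in replicate 4, and 5.90 on both 5-month arrays. Rhbg, an ammonia channel, had 1.86 and 3.86 in primary hepatocytes against 3.49 and 3.51, Slc1a2, a glutamate carrier, had 0.62 and 2.89 against 3.47 and 3.25, and Oat, ornithine aminotransferase (the last pair named after their values were seen), had 4.42 and 6.0 against 5.57 and 5.44. All 4 were lower in replicate 2 than on the other 3 arrays of the slide. Their log2 differences, 0.29 to 1.61 with both primary hepatocyte arrays, became -0.50 to 0.47 against replicate 4 alone and 1.08 to 2.76 against replicate 2 alone. The gap of 3.08 in Glul was exceeded by 2.30% of 29719 probes measured in primary hepatocytes, whose median gap was 0.39.

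The urea cycle genes did not share a gap of this size. Between the primary hepatocyte arrays (replicate 4 minus replicate 2) Asl differed by 0.07, Otc by -0.05, Arg1 by 0.28 and Cps1 by -0.42. The brighter Ass1 probe differed by 0.31, Slc25a15 by 0.34, Slc25a13 by 0.23 and Nags by -0.54. Nags and Cps1 thus exceeded the median gap of 0.39 and were higher in replicate 2. Against replicate 4 alone 7 of the 8 differences at 5 months were below 0, from -0.31 to -0.80, with Nags at 0.20, and against replicate 2 alone 7 of 8 were below 0, with Slc25a15 at 0.04. Hal and Gldc, enzymes of histidine and glycine breakdown chosen after their values were seen, were higher in replicate 2, Gldc by 1.81. The summed stellate cell markers were 10.9 in replicate 2 and 44.1 to 56.3 on the other arrays of the slide. Their part in the gap was not tested.

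**Figure D5:**
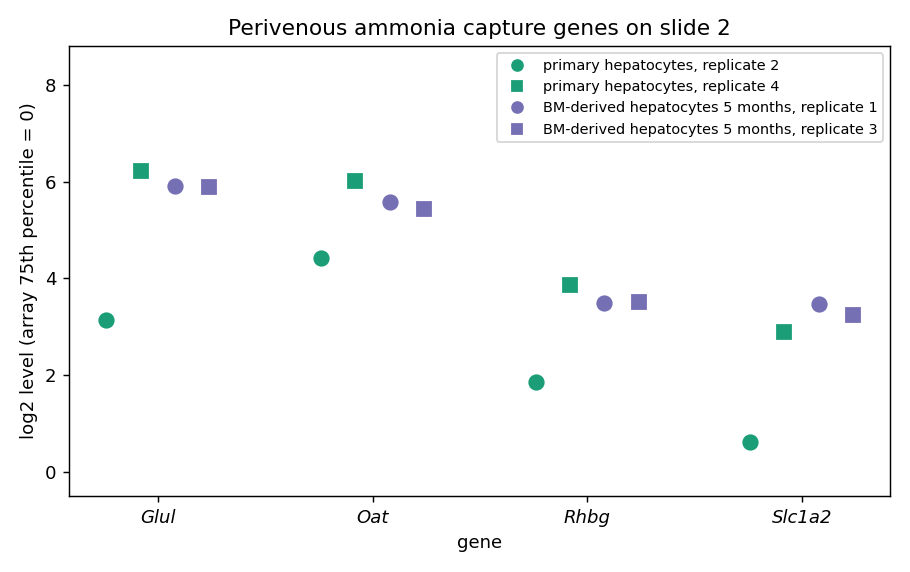
Log2 level (y axis, array 75th percentile = 0) of 4 perivenous ammonia capture genes (x axis) on the 4 arrays of slide 2. Primary hepatocytes replicate 2 is the lowest point in each gene, for Glul at 3.14 against 5.90 to 6.22 on the other 3 arrays.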

How the data were processed

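Labelled cRNA of 8 samples was hybridized to single-colour Agilent arrays, 2 arrays for each of 4 groups. The deposited intensities are background-subtracted signals from Agilent Feature Extraction 11.5.1.1, with a flag for signals well above background. The authors also deposited log2 values shifted to the 75th percentile in GeneSpring GX, which differ from the log2 of the intensities by a constant for at least 99.8% of the probes. Of the per-spot flags that the file headers name, those for outliers were used only as filters. The flag for signals well above background served as a filter, to say where a probe was measured, and to set the lower bounds.

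Outlier spots were left out, spots of a probe were averaged, and log2 signals were centred on each array's 75th percentile, within a slide over all probes and across slides over the probes of identical sequence. A probe was kept if any group of the slide, or across slides any of the 4 groups, had it well above background on each of its arrays. Across slides that group need not be a compared one, so the shares of all genes include genes measured in another group alone. The brightest kept probe stood for its gene. The test was limma (3.58.1, R 4.3.3), run per slide or, across slides, over the 4 groups with pooled spread, with Benjamini-Hochberg adjustment over all genes. With 2 arrays against 2 an exact permutation test cannot go below 0.33. Probes were renamed through RefSeq accessions. Python 3.11.15, pandas 2.3.3 and matplotlib 3.10.9 served for sequences and figures. The fits were tested on simulated data.

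The members, gene lists and tests were chosen with earlier results of these data known. Named are all 8 members, Glul, Arg2, Slc25a2, Slc25a12 and Cad, the gene of each list with the largest rise and the largest fall among those called, and the 2 genes most alike to a member. Other genes, such as Got1, Sds, Oat, Slc1a2, Hal, Gldc, Nr3c1 and Nos2, were chosen after their values were seen. As alternatives, background was corrected by normexp with an offset of 50, arrays were quantile-normalized, the filter was dropped, or use was made of the mean over probes, the methods' t-test, the deposited values, another scaling or probe set, the other probe of a gene, and each array left out. The number of arrays limits the precision.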

Additional observations from a re-analysis of the deposited data

Results flagged for a closer look

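The change of Arg1 against Lin- BM cells was larger at 5 months than at 1 month by a log2 value of 1.60 (limma adjusted p = 0.020), the test of the difference being that between the time points, which lie on different slides, so that slide and time cannot be told apart.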

How the results depend on the processing

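No paired analysis was possible because the groups compared share fewer than 2 replicate numbers. A fit with slide as a block could not be made, since each comparison lies within a slide or has its groups on different slides. The 8 urea cycle genes called at 1 month against Lin- BM cells, the 0 called at 5 months against primary hepatocytes and the 6 called in each other comparison with Lin- BM cells stayed within 1.5 times of these counts under the alternatives run. The lowest were 6 of 6 genes with shared probes at 1 month and 5 of 6 with the adjusted form of the methods' t-test in the other comparisons with Lin- BM cells, where Nags was lost. Nags at 1 month, too, was not called by the methods' t-test, adjusted or not. With 1 array left out these counts were 8, 0, 6 and 6, where a lone array is taken to vary like the others. Those resting on 2 slides and few calls moved. For 1 month against primary hepatocytes, where 2 genes were called, there were 4 with normexp, 1 with quantile normalization, 0 with the adjusted form of the methods' t-test and 0 to 1 with 1 array left out. For 5 months against 1 month, where 1 was called, there were 0 with the adjusted form of the methods' t-test and 0 to 0 with 1 array left out. Over all genes, 1 month against Lin- BM cells had 26463 calls without a filter, 5779 with shared probes, 4571 with the adjusted form of the methods' t-test and 9758 to 12632 with 1 array left out. For 5 months against primary hepatocytes the calls numbered 38 without a filter, 1363 with the methods' t-test unadjusted and 0 with it adjusted, 1533 without primary hepatocytes replicate 2, 1624 without replicate 4, and 0 without either 5-month array. The methods' t-test, adjusted, called 2517 for primary hepatocytes and 3336 for 5 months against Lin- BM cells. For 1 month against primary hepatocytes calls were 2413 with normexp, 4045 without a filter, 2 with the adjusted form of the methods' t-test and 535 to 1000 with 1 array left out. For 5 months against 1 month they were 2687 with normexp, 14 with the adjusted form of the methods' t-test and 322 to 754 with 1 array left out. The sizes of large changes moved too. At 1 month against Lin- BM cells the log2 change ran over the alternatives from 7.88 to 13.25 for Otc and from 7.36 to 12.49 for Cps1. It ran from 2.12 to 5.36 for Slc25a15. The lowest of these are smaller than the lower bounds given above. For Arg1 it ran from 5.83 to 9.40, and from 7.90 to 11.27 for primary hepatocytes against Lin- BM cells. Signs turned in small differences. With 1 array left out, the log2 change of Nags ran from -0.35 to 0.21 and that of Slc25a15 from -0.31 to 0.039 at 5 months against primary hepatocytes. Slc25a13 at 1 month against primary hepatocytes ran from -0.17 to 0.097, and was 0.044 with quantile normalization. Slc25a15 at 5 months against 1 month ran from -0.043 to 0.43. Otc at 5 months against 1 month was 0.17 with normexp, 0.11 with the deposited values and 0.11 with the 75th percentile over all probes. The cause of these changes was not tested.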
